A study of Mus musculus with 19 samples.

Results

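The pancreatic lymph nodes (PLNs) of mice treated with alpha1 antitrypsin (AAT) were compared with those of normal mice: the 4 arrays titled as AAT-treated PLNs and the 4 titled as normal PLNs, 8 of the 19 arrays of the series. AAT nodes came from female NOD (NOD/LtJx) mice that had newly become diabetic and then received AAT, and NOR nodes from normoglycemic female NOD mice, all on a standard diet and light-dark cycle. The 2 PLN arrays of untreated new onset diabetic mice (DIA) entered the estimate of the spread, and the AAT and NOR arrays of fat, 4 in all, were used for a single contrast between tissues. The spread for that contrast was estimated over all 19 arrays. These include fat of untreated diabetic mice and of diabetic mice given Power Mix, the other treatment of the series. Total RNA was extracted with Trizol, and the label attached to every sample describes streptozotocin given to formerly diabetic mice after anti-TNF-α treatment, which is none of these groups. NOD mice carry the autoimmune predisposition in all groups, so NOR nodes are nodes of a diabetes-prone strain. Neither the labels nor the methods tell if each array stands for its own mouse, so the p-values below rest on the spread between arrays, which may be technical.

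The PLN drains the pancreas and is where T cells of NOD mice first meet islet antigens presented by dendritic cells. B cells in its follicles can form germinal centres, in which they divide, mutate their receptors and give rise to plasma cells. AAT is the main serine protease inhibitor of plasma, best known for inhibiting neutrophil elastase, and it also dampens inflammatory responses.

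Sequences of 3 of the loci described below are given first, from RefSeq (GRCm38.p6), because the genes carry signals that did not overlap between AAT and NOR nodes. The Mir142 locus on chromosome 11 encodes a pair of mature miRNAs of blood cells, at chr11:87756867-87756887 and chr11:87756903-87756925 on the plus strand. Capitals mark the seed (bases 2 to 8). The probe set is named for the locus, and where its probes lie in it was not determined.
mmu-miR-142a-5p: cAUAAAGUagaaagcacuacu
mmu-miR-142a-3p: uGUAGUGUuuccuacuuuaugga

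Promoters of Dusp1 and Socs3, which encode feedback inhibitors of MAP kinase and of cytokine signaling, are printed from 250 bases before to 50 bases after the start of the gene. Capitals in the Dusp1 promoter (chr17:26508423-26508722, minus strand) mark the letters TGACGTCA of the cAMP response element, a palindrome and so the same on both strands, starting at position -143 from the start. They occurred in 588 of 32851 promoters of the same length (1.79%), and in 2 of the 21 immediate early genes with a promoter, Dusp1 itself among the 2. Capitals in the Socs3 promoter (chr11:117969317-117969616, minus strand) mark the STAT letters TTCNNNGAA, also the same on both strands, starting at position -154. These letters occurred in 2726 of the 32851 promoters (8.3%), and in 3 of the 17 genes of the IL-1 and IL-6 family list. For both motifs the share over all counts promoters, while the list counts genes with a match in any of their promoters, so the shares have unlike units. A match is a description of the letters only.
Dusp1 promoter: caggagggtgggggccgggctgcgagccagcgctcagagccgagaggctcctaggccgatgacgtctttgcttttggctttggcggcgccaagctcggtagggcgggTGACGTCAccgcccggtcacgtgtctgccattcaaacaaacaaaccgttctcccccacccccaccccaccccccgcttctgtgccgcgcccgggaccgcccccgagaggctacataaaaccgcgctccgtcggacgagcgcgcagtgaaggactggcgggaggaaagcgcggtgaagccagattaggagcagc
Socs3 promoter: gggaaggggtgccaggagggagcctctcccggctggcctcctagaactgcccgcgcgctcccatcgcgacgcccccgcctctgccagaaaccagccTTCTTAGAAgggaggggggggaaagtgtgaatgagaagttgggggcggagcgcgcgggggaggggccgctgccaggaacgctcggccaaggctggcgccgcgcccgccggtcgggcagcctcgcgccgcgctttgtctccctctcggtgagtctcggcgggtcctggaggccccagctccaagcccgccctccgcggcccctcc

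The AAT arrays had lower median signals than the NOR arrays, although a 2% trimmed mean was 500 in every array. Median signals over 45037 probe sets were 178, 92.25, 130.3 and 94.14 in AAT nodes, 279.4 and 151.7 in DIA nodes, and 264.6, 196.3, 178.9 and 243.4 in NOR nodes. No AAT median reached the lowest NOR median. The brightest 1% of probe sets held 44.86%, 35%, 46.6% and 38.05% of the signal in AAT arrays. In DIA arrays they held 35.06% and 36.56%, and in NOR arrays 30.88%, 26.83%, 25.28% and 30.51%. On the log2 scale the medians averaged 6.90 ± 0.449 in AAT and 7.77 ± 0.263 in NOR nodes (SD, n = 4 each), with an exact two-sided permutation p of 0.0286, the smallest that 70 splits allow, and 0.0572 adjusted over 4 measures of the arrays. The share of signals under 50 was 30.47% ± 6.33 in AAT and 15.04% ± 4.39 in NOR nodes (exact permutation p = 0.0286, adjusted 0.0572). The ratio of Gapdh signals at the 3' and 5' ends, a measure of RNA degradation, was 7.425, 20.63, 8.297 and 24.97 in AAT nodes, against 5.553, 6.548, 8.012 and 5.577 in NOR nodes (exact permutation p = 0.0571 on log2 values, adjusted 0.0761). The ratio of AAT arrays 2 and 4 lay far above the others, whereas the same ratio of actin overlapped between groups (exact permutation p = 0.857). As deposited, log2 signals of AAT arrays correlated at 0.705 to 0.817 with each other and at 0.668 to 0.825 with NOR arrays. NOR arrays correlated at 0.774 to 0.89 with each other. Only 1 AAT array correlated best with another AAT array, while all 4 NOR arrays did so with a NOR array. By these correlations as deposited, the AAT arrays thus did not form a group of their own over all probe sets. After quantile normalization, the first principal component of the 8 arrays, the axis of largest variance (28.6%), did separate the groups. AAT arrays lay at -14.93, 147, 174.6 and 116.8 on it, and NOR arrays at -194.8, -28.52, -54.17 and -145.9. AAT 1 lay close to NOR 2. The part of RNA quality in the results below was not tested beyond the alternatives given.

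**Figure D1:**
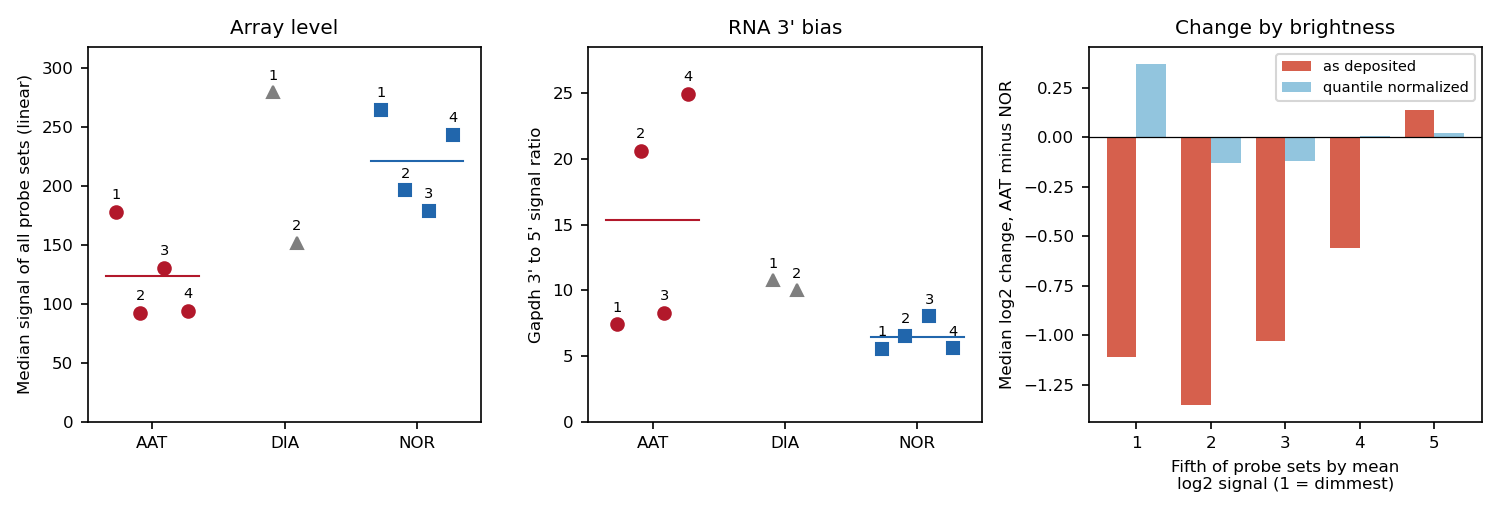
Median signal of each PLN array (left), its Gapdh 3' to 5' signal ratio (middle; numbers are replicate numbers and lines are means of groups of 4), and the median log2 change of AAT minus NOR in each of 5 equal bins of probe sets by mean signal (right). The medians of the 4 AAT arrays, 92.25 to 178, lie below those of the 4 NOR arrays, 178.9 to 264.6, and the change as deposited runs between -1.35 and 0.139 with brightness, while after quantile normalization it stays between -0.127 and 0.371.

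Changes were therefore read on a pair of scales, the log2 signals as deposited and the same after quantile normalization, which gives all arrays one distribution. The median change of AAT minus NOR over all probe sets was -0.72 as deposited and 0.02 after quantile normalization. In 5 equal bins of probe sets, dimmest to brightest, it was -1.11, -1.35, -1.03, -0.56 and 0.139 as deposited, and 0.371, -0.127, -0.117, 0.00934 and 0.0203 after quantile normalization. Unless named otherwise, a change below is the log2 change after quantile normalization with its standard error (SE) and its adjusted p from limma, and a relative change is the deposited change less its median over all probe sets. Relative changes of genes and lists are not matched for brightness. The median of the brightest bin, 0.139, is above the -0.72 of all probe sets, so bright genes tend to have relative changes above 0. Signals are given as deposited, in array order 1 to 4.

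Of 45037 probe sets, 496 rose and 1190 fell in AAT nodes as deposited (1.1% and 2.64%), and 96 rose and 120 fell after quantile normalization (0.213% and 0.266%). Of these, 84 rose and 99 fell on both scales, which is the set described below and is what "rose" and "fell" mean of a gene. By single arrays, the 1686 calls as deposited became 4736 without AAT 1, 711 without AAT 3, 527 without AAT 4, 84 without NOR 1, 239 without NOR 2, 207 without NOR 3 and 139 without NOR 4. The 183 calls on both scales became 504 without AAT 1, 14 without AAT 3, 66 without AAT 4, 11 without NOR 1, 37 without NOR 2, 19 without NOR 3 and 15 without NOR 4. Each count holds all calls of that fit, and 171 of the 504 and 54 of the 66 were among the 183. Without AAT 2 there were 207, with 118 among the 183. At the level of genes, each by its brightest probe set, 1.82% rose and 1.8% fell as deposited and 0.28% and 0.209% after quantile normalization. Called or not, 7.56% of genes had all AAT arrays above all NOR arrays after quantile normalization and 4.06% had them below, and counts over gene lists are to be read beside these shares.

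Immunoglobulin M carried the change with the smallest p. Ighm encodes the heavy chain of IgM, made by naive B cells and by early plasma cells. Its probe set 1427870_x_at had signals of 18700, 24500, 44500 and 8740 in AAT nodes, 9280 and 21800 in DIA nodes, and 363, 612, 375 and 473 in NOR nodes. Every AAT array was far above every NOR array, and both DIA arrays lay within the AAT range. The change was 5.27 (SE 0.403, adjusted p = 9.06e-06), or 38.6-fold. A second probe set, 1427869_at, read 33000, 39300, 76900 and 15800 in AAT nodes, 25100 and 41000 in DIA nodes, and 1820, 2280, 1120 and 891 in NOR nodes (change 4.08, adjusted p = 0.00035). Of the 11 probe sets of Ighm, 8 lay above 0 and 5 rose on both scales. The brightest, 1427351_s_at, did not pass, with 11300, 9540, 68300 and 13500 in AAT nodes against 6230, 5450, 5960 and 5870 in NOR nodes (change 0.84, adjusted p = 0.303). Probe sets of immunoglobulin genes share sequence with near-identical copies, so the split among them is uncertain.

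Jchain, the joining chain that links IgM and IgA into polymers, had 14800, 16700, 33500 and 19500 in AAT nodes, 5120 and 10900 in DIA nodes, and 4240, 2590, 2620 and 2410 in NOR nodes. The lowest AAT array stood above the highest NOR and DIA arrays, and the gene rose 4.55-fold (change 2.18, SE 0.31, adjusted p = 0.0096). All 10 measured genes of the plasma cell and immunoglobulin list lay above 0, with a median change of 0.856 (relative 1.56), beside 0.07 (relative 0.22) over all genes. Only Jchain was called among them by its brightest probe set, and 3 of the 10 did not overlap between groups on the higher side. Igha, the heavy chain of IgA, overlapped, with 12700, 35100, 24600 and 25200 in AAT nodes against 13100, 11700, 11100 and 7630 in NOR nodes (change 0.35, adjusted p = 0.67). Derl3, which serves degradation of misfolded proteins in plasma cells, read 260, 169, 185 and 270 in AAT against 35.4, 108, 116 and 193 in NOR nodes (change 2.14, adjusted p = 0.158). In whole nodes, fewer or more cells of a type and less or more RNA per cell cannot be told apart.

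A germinal centre gene led the genes that rose by their brightest probe set. Rgs13, a regulator of G-protein signaling of germinal centre B cells, had signals of 2550, 583, 953 and 859 in AAT nodes, 421 and 1370 in DIA nodes, and 170, 55.7, 65.8 and 80.1 in NOR nodes. The groups AAT and NOR did not overlap, and the change was 4.38 (SE 0.605, adjusted p = 0.00817), or 20.9-fold. With each array left out in turn the change was 4.00 to 4.79 and the adjusted p at most 0.0428. Gcsam, an adaptor of germinal centre B cells, read 560, 311, 248 and 247 in AAT nodes against 134, 100, 144 and 91.2 in NOR nodes, again without overlap, and missed the threshold (change 2.44, adjusted p = 0.0581). Mybl1, a transcription factor of dividing germinal centre B cells, read 1170, 452, 649 and 279 in AAT against 254, 183, 128 and 260 in NOR nodes (change 2.09, adjusted p = 0.0883). Other genes of the list moved less: Bcl6, the transcription factor that directs the germinal centre program, had 3150, 3910, 2340 and 4420 in AAT against 3760, 1800, 3190 and 2610 in NOR nodes (change -0.06, adjusted p = 0.956). Over the 8 genes measured, 3 did not overlap on the higher side and none on the lower, with a median change of 0.83 (relative 1.07). The median level of the list was 9.8, 8.8, 8.88 and 8.62 in AAT nodes, 8.25 and 9.64 in DIA nodes, and 7.05, 7.17, 7.14 and 6.89 in NOR nodes (log2, quantile normalized).

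Of the genes of DNA replication, Mcm2 and Mcm5 rose. They encode subunits of the helicase that opens DNA at replication origins. Mcm5 read 25900, 12800, 13600 and 10800 in AAT nodes, 8200 and 13400 in DIA nodes, and 1460, 1910, 4380 and 3360 in NOR nodes, and rose 3.97-fold (change 1.99, SE 0.361, adjusted p = 0.0248). Mcm2 read 1440, 979, 1700 and 988 in AAT nodes, 909 and 1700 in DIA nodes, and 355, 317, 475 and 333 in NOR nodes (change 2.05, SE 0.408, adjusted p = 0.0355). For both genes the lowest AAT array exceeded the highest NOR array. The second probe set of Mcm2 lay on the other side of 0, with 7.34, 464, 63.2 and 53.6 in AAT nodes against 212, 461, 306 and 190 in NOR nodes (change -1.49, adjusted p = 0.466). Cdc20, which activates the anaphase-promoting complex, passed only as deposited, with 4830, 2040, 2830 and 2070 in AAT against 779, 301, 1050 and 1080 in NOR nodes (change 1.82, adjusted p = 0.0709). Mki67, a marker of cycling cells, overlapped, at 11900, 4830, 4300 and 11400 in AAT against 8310, 4260, 7160 and 8050 in NOR nodes (change -0.50, adjusted p = 0.497). In the list of 32 genes, 25 lay above 0 and 7 below, 7 did not overlap on the higher side and none on the lower, and the median change was 0.657 (relative 1.13).

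The defining markers of a lymph node were present in both groups, and none of the 8 measured of 12 was called. Ptprc (CD45), on all white blood cells, read 44100, 20000, 18600 and 40800 in AAT against 23600, 17200, 21800 and 23700 in NOR nodes (change -0.50, adjusted p = 0.417). Cd3e, a chain of the T cell receptor complex, read 7280, 10200, 7130 and 12400 in AAT against 5490, 8980, 7190 and 5160 in NOR nodes (change -0.18, adjusted p = 0.798). Ms4a1 (CD20) of B cells read 14300, 6350, 8760 and 6220 in AAT against 7930, 4680, 5780 and 6150 in NOR nodes (change -0.13, adjusted p = 0.88). These ranges overlap for all 3 genes. Over the 19 genes of the B cell list the median change was -0.131 (relative 0.721), so its direction turned with the scale, and without AAT 4, NOR 1 or NOR 3 the first was 0.0307, 0.0286 or 0.0182. One member, Pou2af1, the coactivator of octamer-dependent transcription in B cells, had 9190, 9600, 10800 and 7000 in AAT nodes, 8310 and 16500 in DIA nodes, and 2930, 3910, 3720 and 3250 in NOR nodes, and passed only as deposited (change 0.83, adjusted p = 0.143).

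T cell genes lay mostly below 0 after quantile normalization, 19 of 21, with a median change of -0.672, while their median relative change as deposited was 0.441, so the direction of the list turned with the scale. The relative median lay between -0.0139 (without AAT 2) and 0.687 (without NOR 2) with each array left out, and was 0.0958 without NOR 1. No member was called on either scale by its brightest probe set. One of the 5 probe sets of Satb1, an organizer of chromatin in T cells, fell, with 1870, 291, 438 and 851 in AAT nodes, 3520 and 2230 in DIA nodes, and 4560, 3460, 3630 and 4070 in NOR nodes (change -2.54, SE 0.453, adjusted p = 0.0242), while the brightest gave 0.41 (adjusted p = 0.532). By the brightest probe sets Cd3g, another chain of the receptor complex, had the smallest p after quantile normalization, with 2450, 3390, 2590 and 2300 in AAT nodes against 4530, 4930, 5900 and 5040 in NOR nodes, no overlap, and a change of -1.33 (SE 0.295, adjusted p = 0.0541). Themis, a signaling protein of T cell selection, read 821, 733, 1040 and 783 in AAT against 1330, 2230, 2030 and 1830 in NOR nodes (change -1.12, adjusted p = 0.104). Both genes had lower signals as deposited in every AAT array, but their relative changes were only -0.21 and -0.40. Among genes of regulatory T cells, the receptor Ctla4 had 1250, 1450, 4500 and 1560 in AAT nodes against 541, 998, 795 and 563 in NOR nodes (change 1.46, adjusted p = 0.1). Foxp3, the transcription factor that defines these cells, had 230, 478, 363 and 303 in AAT against 684, 878, 686 and 592 in NOR nodes (change -0.76, adjusted p = 0.41). The pair thus lay on opposite sides of 0 without passing the test, and the list's median was -0.02 (relative 0.38), above 0 without any 1 of the 8 AAT and NOR arrays (0.0165 to 0.146).

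**Figure D2:**
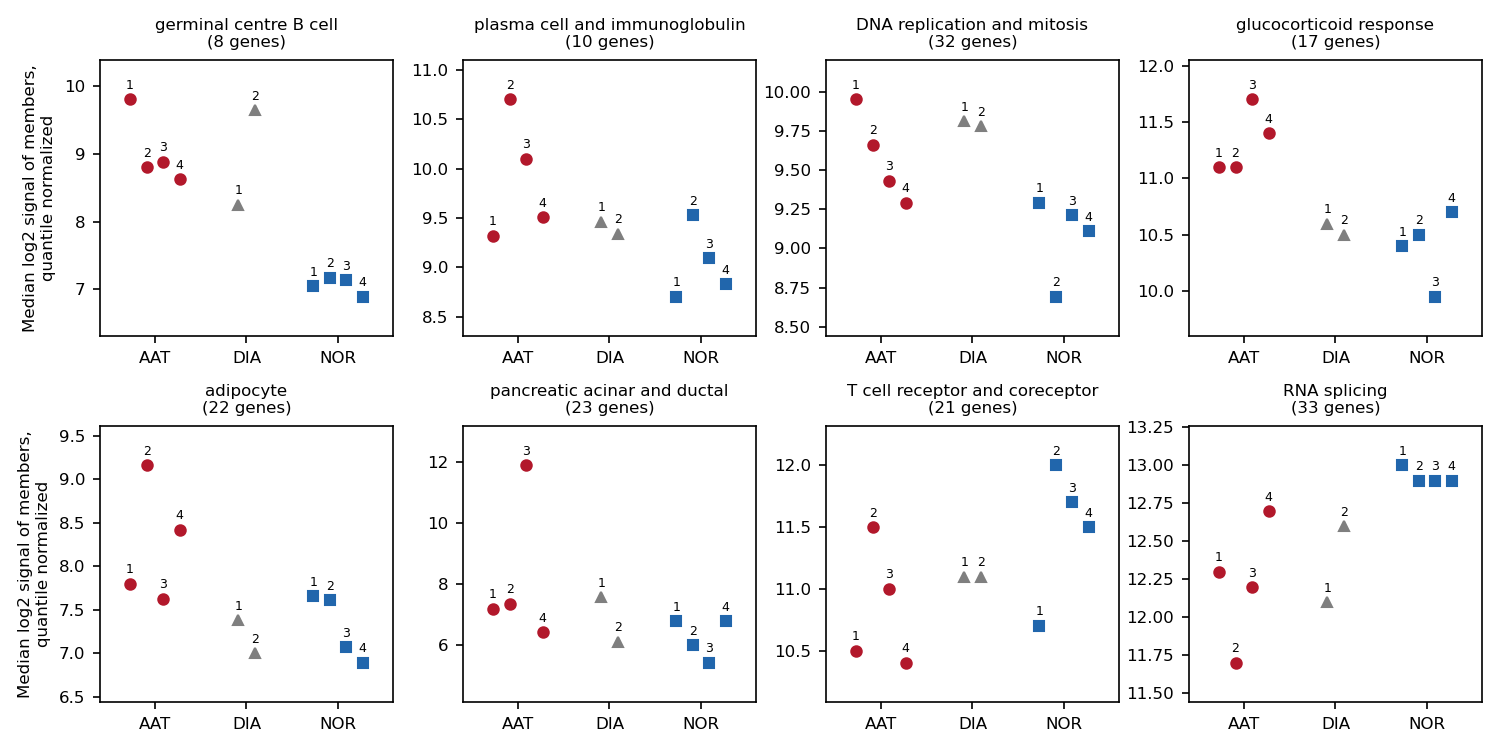
Median log2 signal (quantile normalized) over the members of 8 gene lists in each PLN array, with replicate numbers beside the points. AAT arrays lie above NOR arrays without overlap for the germinal centre list (8.62 to 9.8 against 6.89 to 7.17) and the glucocorticoid response list (11.1 to 11.7 against 9.95 to 10.7). They lie below NOR arrays for the splicing list (11.7 to 12.7 against 12.9 to 13), and a single AAT array, at 11.9, stands apart in the acinar list.

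Genes of cells that surround or enter the node were compared next. Fabp4, the fatty acid binding protein of adipocytes, read 6980, 20400, 22800 and 27000 in AAT nodes, 2970 and 1980 in DIA nodes, and 2540, 3160, 2590 and 4610 in NOR nodes, and rose 3.76-fold (change 1.91, SE 0.395, adjusted p = 0.0415). Car3, a carbonic anhydrase abundant in fat, read 1910, 19300, 10000 and 22500 in AAT nodes, 228 and 166 in DIA nodes, and 1290, 1180, 256 and 1760 in NOR nodes (change 3.07, SE 0.654, adjusted p = 0.046). Its dimmer probe sets gave -1.07, 1.01 and 2.03, none called. AAT 1 was close to the NOR range for both genes and the other AAT arrays were far above it. With the Gapdh ratio as a covariate neither gene passed (adjusted p = 0.101 and 0.222 as deposited), as held for 23 of the 42 probe sets named as having risen or fallen, an alternative chosen after seeing the data. Adipoq, the adipocyte hormone adiponectin, did not separate the groups, with 46.2, 1570, 141 and 606 in AAT against 180, 168, 61.9 and 249 in NOR nodes. Of 22 adipocyte genes 20 lay above 0 and 7 did not overlap on the higher side (median change 1.24, relative 1.58, the relative one 1.00 without AAT 2). The list's median level was 7.8, 9.16, 7.63 and 8.42 in AAT against 7.66, 7.61, 7.07 and 6.89 in NOR nodes.

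Acinar genes of the exocrine pancreas were led by one array. Cela3b, a pancreatic elastase, read 1380, 1370, 168000 and 322 in AAT nodes, 7590 and 384 in DIA nodes, and 684, 209, 207 and 516 in NOR nodes. Zg16, a protein of zymogen granules, read 813, 1570, 103000 and 355 in AAT against 491, 357, 186 and 394 in NOR nodes. AAT 3 stood far above every other array in both genes. Of 23 acinar and ductal genes, 21 lay above 0, none was called by its brightest probe set, and the median change of 2.23 (relative 1.92) was 0.743 without AAT 3. Clps, the cofactor of pancreatic lipase, rose by 1 of its 2 probe sets, with 475, 460, 71100 and 144 in AAT against 10.9, 21, 6.64 and 3.5 in NOR nodes (change 7.76, SE 1.23, adjusted p = 0.0191), and the other gave 1.76 (adjusted p = 0.479). The trypsin gene Prss2 likewise rose by dimmer probe sets, one of them with 152, 127, 5620 and 78.5 in AAT against 21.8, 8.42, 12.1 and 15.5 in NOR nodes (change 5.50, SE 1.08, adjusted p = 0.0339). The NOR signals of these Clps and Prss2 probe sets are low, down to 3.5 and 8.42, so the size of their changes is uncertain. Genes of islets went the other way: 12 of 18 lay below 0 (median change -0.682, relative -0.746), with a median of -0.438 without AAT 1 and -0.367 without AAT 4. Ptprn (IA-2), a protein of secretory granules and a known autoantigen in type 1 diabetes, fell, its AAT signals close to the floor of 1, with 6.31, 7.35, 6.26 and 4.56 in AAT nodes, 381 and 113 in DIA nodes, and 305, 200, 187 and 244 in NOR nodes (change -4.07, adjusted p = 0.0255). Iapp, the amyloid polypeptide secreted with insulin, read 150, 12.3, 78.7 and 98.7 in AAT against 1270, 470, 407 and 1420 in NOR nodes and passed only as deposited (change -3.03, adjusted p = 0.0547). Its other probe sets, all dimmer and none called, gave 2.61, 1.97 and -0.70 (adjusted p = 0.192, 0.351 and 0.766). The part of tissue next to the node in the results was not tested.

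Dusp1, the phosphatase that switches off MAP kinases, and Socs3, the inhibitor of STAT3 signaling downstream of IL-6, both rose. Dusp1 read 2460, 3730, 13300 and 9150 in AAT nodes, 1560 and 1660 in DIA nodes, and 667, 503, 932 and 1160 in NOR nodes, or 6.3-fold (change 2.66, SE 0.445, adjusted p = 0.0217). Socs3 read 4940, 2600, 6600 and 6550 in AAT nodes, 1870 and 1040 in DIA nodes, and 1050, 865, 1000 and 1260 in NOR nodes, or 3.83-fold (change 1.94, SE 0.378, adjusted p = 0.0339), and a second of its 3 probe sets rose too. Both of these Socs3 probe sets have names that mark sequence shared with other genes, and the third gave 1.05 (adjusted p = 0.734). For both genes every AAT array stood above every NOR and DIA array. Dusp1 belongs to the lists of immediate early genes and of glucocorticoid-induced genes. Jun, a component of the AP-1 transcription factor, had 1360, 1020, 2250 and 1650 in AAT against 856, 424, 549 and 612 in NOR nodes, without overlap, and missed the threshold (change 1.40, adjusted p = 0.103). Mt1, a metallothionein, had 522, 813, 3160 and 1350 in AAT against 222, 380, 263 and 431 in NOR nodes (change 2.21, adjusted p = 0.1). Among the 26 immediate early genes, 5 did not overlap on the higher side and 1 on the lower (median change 0.143, relative 0.842). That median was 0.259 without AAT 1, 0.0367 without AAT 2 and 0.269 without NOR 3. For the 17 glucocorticoid response genes the counts were 3 and none, with a median of 0.466 (relative 1.55), or 0.234 without AAT 4.

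The inflammatory genes around TNF did not pass on both scales. Tnf read 24.5, 55.4, 36 and 88.8 in AAT nodes, 42.7 and 107 in DIA nodes, and 337, 233, 234 and 382 in NOR nodes. Every AAT array was below every NOR array, but with an SE of 0.749 the change of -1.74 had an adjusted p of 0.259, and the change as deposited one of 0.0517. Cxcl10, an interferon-induced chemokine that attracts activated T cells, read 211, 250, 208 and 301 in AAT nodes, 219 and 256 in DIA nodes, and 605, 1820, 965 and 772 in NOR nodes, and passed only as deposited (adjusted p = 0.0279, change after quantile normalization -1.61, adjusted p = 0.12). Tnip2, an inhibitor of NF-κB activation, read 8.33, 12, 142 and 33.9 in AAT against 419, 477, 470 and 422 in NOR nodes, and also passed only as deposited (adjusted p = 0.0221 and 0.0925). Nfkbia, the inhibitor IκBα that holds NF-κB in the cytoplasm, read 40600, 28700, 33200 and 46700 in AAT against 12900, 8040, 12800 and 19200 in NOR nodes, higher as deposited (adjusted p = 0.0301), with a change of 0.74 after quantile normalization (adjusted p = 0.229). The interferon-γ list (19 genes) had a median of -0.568 with a relative median of 0.387, so its direction turned with the scale, and no member was called. Without AAT 3 or NOR 2 the first was -0.362 or -0.311. The network hubs that the study names, many of them families or complexes, were spelled out here as 16 genes. Of these 13 were measured and none was called on either scale by its brightest probe set, among them Il1b, Il6, Vegfa, Akt1 and Myc. The hubs were chosen on these samples, so they are no independent set. The study ranked them by their number of network connections, and it states that several were not themselves differentially expressed. Its PLN network was built from genes that AAT reversed relative to diabetic nodes, which is another contrast than AAT against NOR. The values here therefore do not test the hubs.

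Serpins and proteases were examined because AAT is a serpin. Serpina1b, a mouse gene of AAT itself, read 7430, 11200, 6630 and 7140 in AAT against 4400, 7310, 8300 and 8120 in NOR nodes (change -0.41, adjusted p = 0.567). Serpina3n, an acute phase serpin, had 294, 574, 410 and 188 in AAT against 654, 1660, 916 and 1450 in NOR nodes and passed only as deposited (adjusted p = 0.044, change -1.42 with adjusted p = 0.132). Serpinb6b, an intracellular serpin, had 11200, 5210, 6110 and 14300 in AAT against 1760, 2440, 3040 and 2570 in NOR nodes and likewise passed only as deposited (adjusted p = 0.0177, change 1.32 with adjusted p = 0.0693). Of the 16 neutrophil granule genes, including proteases that AAT inhibits, none was called and 1 did not overlap after quantile normalization, with a median change of 1.33 (relative 0.883). That gene, Ctsg (cathepsin G), had 286, 66.8, 39.2 and 28.4 in AAT against 20.8, 15.1, 34.2 and 13 in NOR nodes (change 3.26, adjusted p = 0.118), which overlap as deposited. Its mean log2 signal of 5.18 lay in the dimmest of the 5 bins, where the median change over all probe sets was 0.371.

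The rule for named genes took 12 on each side, with Rgs13 and Dusp1 among those that rose. Wfdc17, a secreted protein of activated macrophages, had 3480, 6360, 6960 and 4870 in AAT nodes, 476 and 1100 in DIA nodes, and 467, 569, 882 and 293 in NOR nodes (change 3.33, SE 0.461, adjusted p = 0.00817). Mthfd1, an enzyme of folate metabolism, had 7060, 8410, 5000 and 10900 in AAT against 1150, 694, 1210 and 1120 in NOR nodes (change 2.56, SE 0.453, adjusted p = 0.0237). Ackr3, a receptor that scavenges the chemokine CXCL12, had 520, 1870, 1250 and 1050 in AAT against 142, 134, 215 and 365 in NOR nodes (change 2.84, adjusted p = 0.0333). By the rule, AAT and NOR arrays do not overlap for any of these genes. Efemp1, a matrix protein, changed by 3.67 (SE 0.631), and Phldb2, which anchors microtubules at the cell cortex, by 2.58 (SE 0.466), with adjusted p of 0.0226 and 0.0245. The protease Prss29 changed by 3.78 (adjusted p = 0.0226), the caspase adaptor Cradd by 2.94 (adjusted p = 0.0462) and the phosphatase Ptprg by 2.73 (adjusted p = 0.0436). Ube2w, a ubiquitin-conjugating enzyme, had 17900, 3520, 5180 and 5570 in AAT against 859, 634, 963 and 1140 in NOR nodes (change 2.57, adjusted p = 0.0226), but its other 3 probe sets lay below 0.

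Hbb-b2, a beta globin of red cells, rose, with 2320, 5650, 1450 and 1040 in AAT nodes, 767 and 5860 in DIA nodes, and 161, 315, 352 and 188 in NOR nodes (change 3.53, SE 0.644, adjusted p = 0.0252). Its second probe set gave 2.70 (adjusted p = 0.291). Of the alpha globins, Hba-a1 lay above 0 (change 2.54, adjusted p = 0.236) and Hba-a2 below, with 869, 3120, 862 and 272 in AAT against 1910, 8880, 3260 and 1700 in NOR nodes (change -1.87, adjusted p = 0.123). Globin genes exist as near-identical copies that probe sets share, so none of these values is certain for its gene alone. In the erythroid and platelet list 9 of 13 genes lay above 0 and none was called (median change 0.466, and 0.134 without AAT 2 or 0.878 without NOR 2).

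**Figure D3:**
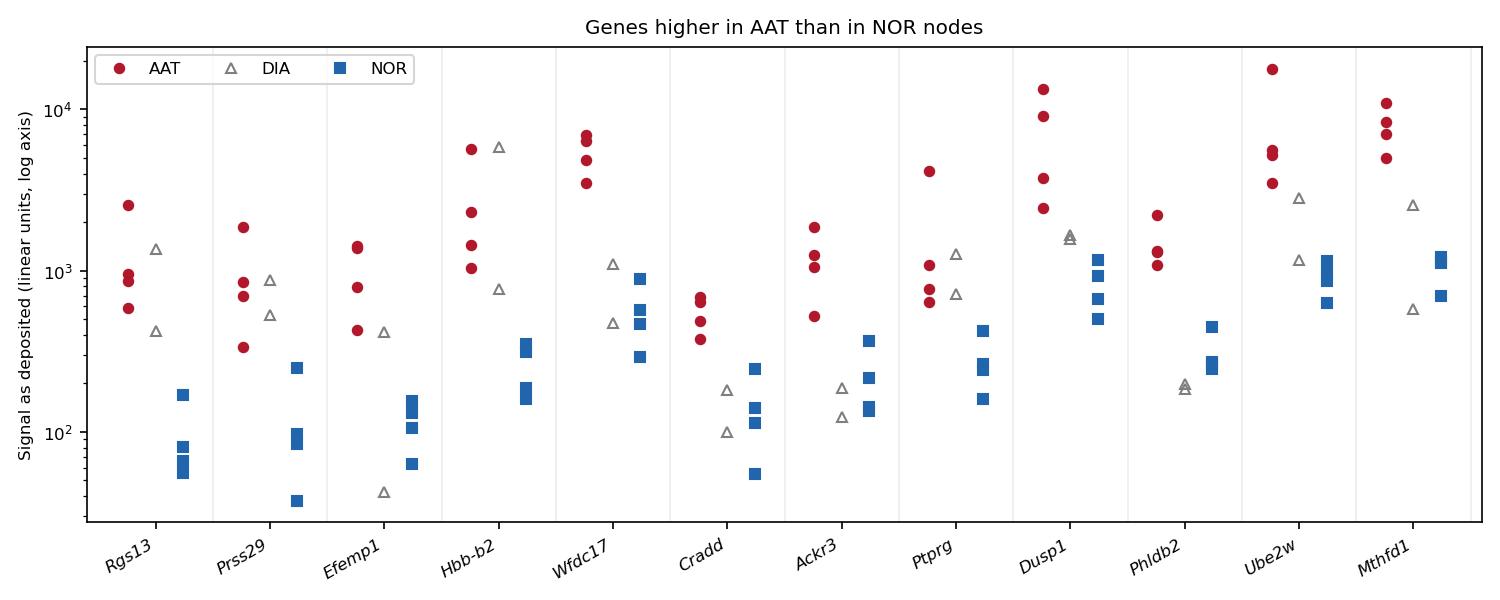
Signals as deposited (log axis) of the 12 genes higher in AAT than in NOR nodes that the rule for named genes took, with the DIA arrays between. For each gene the 4 AAT arrays lie above the 4 NOR arrays, by which the rule chose them.

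On the lower side, Nxf1, the receptor that exports mRNA from the nucleus, had 1740, 1490, 1390 and 3340 in AAT nodes, 1540 and 3750 in DIA nodes, and 8330, 5440, 5680 and 7350 in NOR nodes, and fell 4.54-fold (change -2.18, SE 0.342, adjusted p = 0.0191). The probe set named for Mir142 had 883, 739, 353 and 381 in AAT nodes, 1620 and 2980 in DIA nodes, and 1630, 5850, 3120 and 2250 in NOR nodes (change -2.35, SE 0.421, adjusted p = 0.0242). Gm31024, annotated as a long noncoding RNA, had 322, 283, 189 and 325 in AAT against 3720, 1460, 1230 and 1920 in NOR nodes (change -2.55, adjusted p = 0.0226). All 3 kept every AAT array below every NOR array, as the rule requires. Gm6958 read 16500, 1380, 2510 and 1750 in AAT nodes, 3030 and 2790 in DIA nodes, and 42200, 32900, 17300 and 38800 in NOR nodes (change -3.96, SE 0.518, adjusted p = 0.00528), on a probe set whose name marks shared sequence. Fabp3, a fatty acid binding protein of heart and muscle, had 125, 56.6, 47.5 and 12.7 in AAT against 1400, 689, 470 and 881 in NOR nodes (change -3.44, adjusted p = 0.0415), but its second probe set gave 0.09. Agap2, a GTPase-activating protein, fell with a change of -2.78 (adjusted p = 0.0395) and Eogt, a glycosyltransferase, with -2.60 (adjusted p = 0.0395). The other probe sets of Eogt gave 1.38 and -0.65 (adjusted p = 0.37 and 0.629). The pseudogene Speer4cos, Fam170b, the pseudogene Slc2a4rg-ps and Rsph3a, of the radial spoke of cilia, fell by 4.98, 3.17, 3.06 and 2.51. The odorant receptor Olfr68 had the lowest change, -5.88 (SE 1.23, adjusted p = 0.0436), with 396, 1.05, 3.76 and 37.3 in AAT nodes, 39.6 and 2.34 in DIA nodes, and 2700, 1620, 692 and 1540 in NOR nodes. Signals this close to 1 are at the floor of the scale and their log changes depend on it.

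Of 42 probe sets named here as having risen or fallen, 6 passed on both scales whichever of the 8 AAT and NOR arrays was left out: those of Rgs13, Wfdc17, Gm6958 and Jchain and the 2 of Ighm described first. The other 36 missed the threshold on at least 1 scale without 1 array or more, AAT 3 and the NOR arrays among them. Dusp1, for example, reached an adjusted p of 0.0819, Socs3 of 0.107, Mcm5 of 0.0997, Fabp4 of 0.142, Nxf1 of 0.0883 and Mir142 of 0.0907. With the Gapdh ratio as a covariate 23 of the 42 no longer passed as deposited, among them Gm6958 (adjusted p = 0.17), Dusp1 (0.0605), Nxf1 (0.0643), Mcm2 (0.0646) and Mir142 (0.0811). With signals under the 20th percentile raised to it after quantile normalization, the first Ighm probe set alone remained called.

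**Figure D4:**
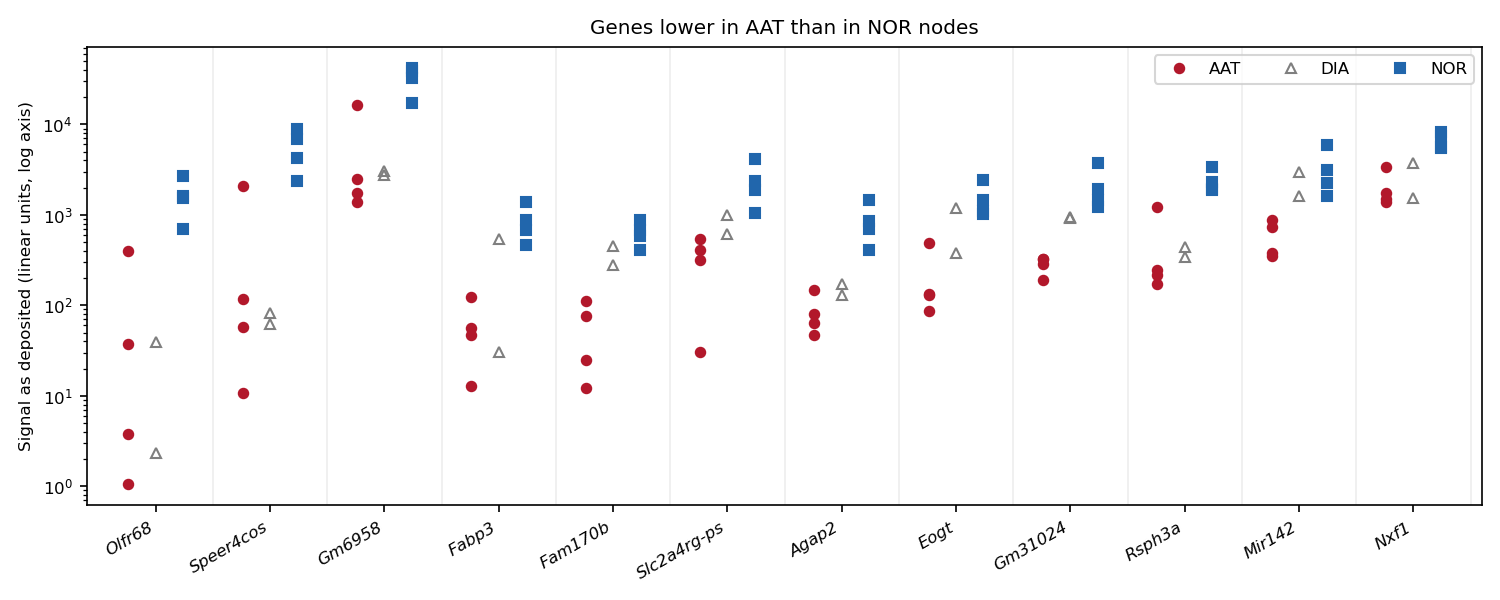
Signals as deposited (log axis) of the 12 genes lower in AAT than in NOR nodes that the rule for named genes took, with the DIA arrays between. The lowest AAT signals, down to 1.05 for Olfr68, lie near the floor of 1, and Nxf1 and Mir142 stay well above it in every array.

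Genes of RNA splicing lay below 0 after quantile normalization, 28 of 33, with 6 not overlapping on the lower side and 1 on the higher. Their median change was -0.566 but their relative change as deposited 0.742 (0.414 without AAT 4), so the direction turned with the scale. Clk1, a kinase of splicing factors, had 3300, 2320, 3560 and 10900 in AAT nodes, 2500 and 4410 in DIA nodes, and 16800, 7940, 11200 and 12200 in NOR nodes, and was called after quantile normalization only (change -2.07, adjusted p = 0.0245, as deposited 0.0541). Srsf2, a splicing factor of the SR family, was the other call there (change -1.48, adjusted p = 0.0387, as deposited 0.089). As deposited the one call was in the other direction: Hnrnpd, an RNA-binding protein, had 8390, 11200, 13200 and 7460 in AAT nodes, 3190 and 9300 in DIA nodes, and 1440, 3920, 4800 and 3130 in NOR nodes (adjusted p = 0.0328), with a change of 1.14 after quantile normalization (adjusted p = 0.146). A dimmer probe set of Pnisr, a protein with serine and arginine repeats, fell on both scales, with 909, 1370, 1310 and 1580 in AAT against 2590, 4880, 4340 and 4350 in NOR nodes (change -1.87, adjusted p = 0.0217). Ccnl1, a cyclin that binds a splicing kinase and is not in the list, fell on both scales, with 836, 1210, 1150 and 3310 in AAT nodes, 3740 and 4820 in DIA nodes, and 5200, 4170, 6490 and 4700 in NOR nodes (change -2.14, adjusted p = 0.0191). It was chosen after its values were seen.

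Of the genes of energy metabolism and protein turnover, Ndufv1 and Psmb4 rose. Ndufv1, a subunit of respiratory complex I, had 5180, 5460, 5990 and 4270 in AAT nodes, 2120 and 2240 in DIA nodes, and 1570, 1370, 1420 and 1360 in NOR nodes, and rose (change 1.52, SE 0.298, adjusted p = 0.0339). Psmb4, a subunit of the proteasome core, had 23300, 23000, 38200 and 19900 in AAT nodes, 9370 and 16800 in DIA nodes, and 5470, 6330, 5710 and 3670 in NOR nodes (change 1.55, SE 0.272, adjusted p = 0.0226). By these probe sets the lowest AAT array of both genes stood above the highest NOR and DIA arrays. The second probe set of Psmb4 gave -0.90 (adjusted p = 0.558). The other probe sets of Ndufv1 gave 1.63 and -0.02 (adjusted p = 0.0392 and 0.989). Of 30 genes of oxidative phosphorylation, 20 lay above 0 (53.2% of all genes did), 5 were called as deposited and 1 after quantile normalization, and 4 did not overlap on the higher side (median change 0.302, relative 1.47, and 0.153 without AAT 2). Of 24 proteasome and ubiquitin genes 15 lay above 0, and 4 were called as deposited and 1 after quantile normalization. Their median change of 0.12 (relative 1.12) was close to the 0.07 of all genes, and it lay between -0.0905 (without NOR 1) and 0.269 (without AAT 3) with each array left out. Tspo, a protein of the outer mitochondrial membrane, rose by 2 of its 3 probe sets, the brighter with 2600, 1510, 2410 and 1650 in AAT against 379, 295, 459 and 520 in NOR nodes (change 2.42, adjusted p = 0.0191).

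**Figure D5:**
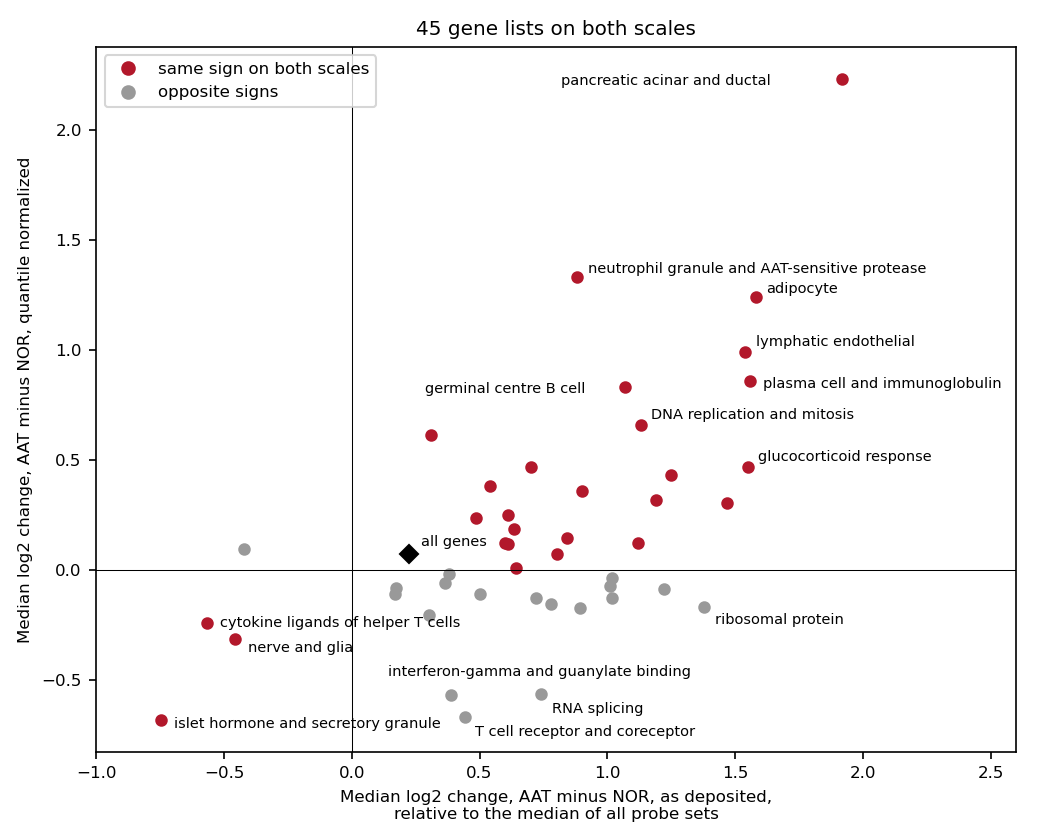
Median log2 change of AAT minus NOR over the members of each of 45 gene lists, after quantile normalization (vertical) against the deposited change relative to the median of all probe sets (horizontal). The germinal centre (0.83 and 1.07), plasma cell (0.856 and 1.56) and adipocyte lists (1.24 and 1.58) lie above 0 on both, the islet list (-0.682 and -0.746) below on both, and the T cell, splicing and interferon-γ lists change sign.

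Several lists took opposite signs on the 2 scales, among them T cell (-0.672 and 0.441), ribosomal protein (-0.172 and 1.38) and lymph node identity (-0.131 and 1.02), so that their direction turned with the scale. Probe sets with names ending in _x_at, which share sequence with other genes, made up 5.42% of all but 40.5% (34 of 84) of those that rose on both scales and 7.07% (7 of 99) of those that fell. Those that rose include the probe sets by which Socs3, Mcm5, Psmb4, Tspo and Prss2 were called and the one first given for Ndufv1. These rises are thus not certain for the named gene alone. Probe sets without a named gene made up 20.3% of all and 41.4% of those that fell (41 of 99), against 6 of the 84 that rose. Of 115 genes with a probe set called on both scales, 92 had more than 1 probe set, 52 had probe sets on both sides of 0, and none had them called in both directions.

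The contrast of AAT minus NOR was also set against the same contrast in fat, with 2 arrays a group there, in a fit over all 19 arrays. A single probe set differed between the tissues as deposited (0.00222% of those tested) and none after quantile normalization (0%), by limma, with 4596 and 3926 at an unadjusted p under 0.05. It is 1440037_at, which names no gene, with 168, 260, 259 and 284 in AAT nodes against 887, 1340, 1030 and 1120 in NOR nodes, and 1910 and 1410 in AAT fat against 507 and 417 in NOR fat (difference of changes -3.45 relative to its median over all probe sets, SE 0.605, adjusted p = 0.0371 as deposited). Rgs13 had a change of 0.40 (SE 1.15) in fat, and the difference from its change in nodes did not pass after quantile normalization (3.99, SE 1.41, adjusted p = 0.422).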

How the data were processed

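Gene expression was measured on Mouse 430 2.0 arrays (Affymetrix) in 4 AAT, 4 NOR and 2 DIA arrays of PLNs. The deposited values are signals in the unit intensity, which the authors made with MAS5, of a version not given in the sources used here. A 2% trimmed mean computed from them is equal in all arrays. The study's own RMA values were not used. The label protocol names both a standard biotin labelling and a whole-transcript amplification system. All 19 columns were used and 64 control probe sets were left out.

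Values under 1 were set to 1 and log2 was taken. Of 45037 probe sets 34945 name 1 gene (18193 genes after 34741 symbols were updated), 932 several and 9160 none, and a gene is given by its brightest probe set that names it alone. Linear models of limma 3.58.1 (R 4.3.3) were fitted over the 10 PLN arrays with a mean for each group and eBayes with a trend, as deposited and after quantile normalization. The Benjamini-Hochberg adjustment ran over all probe sets, and calls were made below 0.05. The median SE was 0.781 as deposited and 0.733 after quantile normalization, limited by the number of arrays. Measures of the arrays were compared by exact permutation tests over 70 splits.

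Named genes are the 12 higher and 12 lower with the largest change among genes called in the same direction on both scales, at or above the median mean signal and without overlap of AAT and NOR arrays, together with lymph node markers, genes of the hubs the study names and, of each list, the 4 genes at most with the smallest p and the 2 with the highest mean. Other genes, such as further probe sets, Hnrnpd and Ccnl1, were chosen after their values were seen. Members and the 45 lists were chosen with earlier results of these data known. The fits were tested on simulated data. Alternatives were median centring, leaving out the probe sets below percentile 40 or 60 of the mean signal, raising signals to percentile 20, adding 32 before the log2, omitting the eBayes trend, a replicate block, 8 arrays only, 1 probe set per gene, rank products with 100 permutations, the study's thresholds and each array left out. Leaving out AAT 2 and 4 together, and the Gapdh ratio as a covariate, were chosen after seeing the data.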

Additional observations from a re-analysis of the deposited data

Results flagged for a closer look

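A lone array stood apart from the other 3 of its group in 6 of 98 groups examined, where chance alone gives 4.9 at 1 in 20. In NOR array 3 Phldb2 had a signal of 445, against 244 to 270 in the other NOR arrays. Mthfd1 was 694 in NOR array 2, against 1120 to 1210. In AAT array 4 Ltb, the lymphotoxin beta chain needed for lymph node structure, was 133, against 928 to 1270 in the other AAT arrays. Cxcl13, the chemokine that draws B cells into follicles, was 7030 in NOR array 4, against 5690 to 5830, and Tgfb1 in the same array was 515, against 366 to 371. Il6 was 1.08 in AAT array 2, at the floor of the scale, against 53.1 to 100.

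One probe set without a named gene, 1440037_at, differed in its response between tissues: AAT minus NOR in nodes less AAT minus NOR in fat was -3.45 (SE 0.605, limma adjusted p = 0.0371 as deposited), and -3.66 with an adjusted p of 0.132 after quantile normalization. Its signal was lower in all 4 AAT nodes than in all 4 NOR nodes and higher in both AAT fat arrays than in both NOR fat arrays.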

How the results depend on the processing

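The 1686 probe sets called as deposited (70.6% lower) became 216 after quantile normalization (55.6% lower), 283 with quantile normalization over the 8 AAT and NOR arrays, 6762 with a floor at the 20th percentile (86% lower), 2582 with log2 of the value plus 32, 1 with quantile normalization and that floor (an Ighm probe set), 331 without the eBayes trend (94.3% lower), 580 with 1 probe set per gene (47.1% lower), 10531 at the study's thresholds by limma and 6731 at those with rank product p-values. Median centring gave 1578, of which only 17% were lower and 764 were among the 1686. Each array left out in turn gave 84 to 4736. Chosen after seeing the data, the fit without AAT arrays 2 and 4 gave 1074 and the Gapdh ratio as a covariate 347. The 183 probe sets called on both scales became 1 with the floor, 8 without the trend, 119 without AAT arrays 2 and 4, 67 with the Gapdh covariate and 11 to 504 with each array left out. These counts hold all calls of a fit, not only those kept from the main fit. Only 22 of the 67 with the Gapdh covariate were among the 183, and 49 of the 119 without AAT arrays 2 and 4. The single probe set that differed between tissues became 0 after quantile normalization within each tissue. The relative change of Acta1, an actin of muscle, was 1.09 and turned to -0.73 with the floor.

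Whether the replicate numbers of the titles pair the arrays was not settled. Deviations of same-numbered AAT and NOR arrays correlated at 0.281, 0.276, -0.041 and 0.00522, and 2 of 4 AAT arrays correlated best with their own number. A replicate block gave 4806 calls as deposited and 542 on both scales. Of the 24 genes named by the rule, 17 lost the call as deposited without the trend, 17 with the Gapdh covariate, and up to 15 with 1 array left out (NOR 1). None of the 24 passed after quantile normalization with the floor. Signals under the floor, and 4 arrays a group, limit what these values can show, and the cause of these differences was not tested.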
